A study of Mus musculus with 3 samples.

Results

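CD5 Low naive CD4 T cells are the cells that the authors placed in the lowest of 3 classes of surface CD5. They number 174 of 697 cells (25%), with 48, 46 and 80 in plates 1, 2 and 3, and were compared within each plate with the 349 cells of the Middle class (75, 100 and 174). All cells came from spleen and lymph node of C57BL/6 mice aged 8 to 12 weeks, male and female pooled, and were profiled freshly sorted, with no treatment. The gate for naive cells took live single cells that included TCRb, CD4 and CD5 among their surface markers and lacked CD8, CD25 and CD44. Each plate is 1 sample of this same population, and the labels do not say whether plates hold different animals. The p-values therefore rest on the spread between these plates, which may be technical. For edgeR, the test of single genes, that spread is mostly pooled over genes and not the gene's own.

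CD5 is a surface inhibitor of T cell receptor signalling, and its level on a naive T cell is set in the thymus and maintained by contact with self-peptide on MHC molecules. Cells with little CD5 are therefore used as a stand-in for cells with weak self-reactivity. The genes taken as marks of the Low class are Ly6c1 and Ly6a, which encode small lipid-anchored surface proteins, and Dntt, which encodes terminal deoxynucleotidyl transferase, the enzyme that adds bases at the joints of antigen receptor genes during thymic rearrangement.

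CD5 fluorescence of the Low cells ran from 1120 to 26610 cytometer units with a median of 16646.5, against a Middle median of 45073. The class was set on this value, which is therefore a description and not a finding. The 3 Low cells nearest to the border stood at 26368, 26610 and 26610, and the nearest Middle cells at 26773, 27101 and 27101. The Low cells of plate 1 had a median CD5 of 19356.5, those of plate 2 15338.5 and those of plate 3 16421.

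The Low cells carried the transcripts of naive CD4 T cells. Cd4 was found in 168 of 174 Low cells (96.6%, 95% exact binomial interval 92.6 to 98.7). Summed over 9 markers of naive CD4 T cells, the level was 6106, 4770 and 6228 counts per 1000000 UMIs of the sum (CPM) in the Low cells of plates 1, 2 and 3, close to 6182, 5159 and 6564 in the Middle cells. A UMI is a unique molecular identifier, which counts 1 captured transcript. Markers of other cell types were at lower levels. The 2 CD8 T cell markers summed to 9.66, 19.9 and 22.1 CPM in the Low cells of plates 1, 2 and 3. The 2 myeloid markers in the table summed to 155, 259 and 204 CPM in Low and 324, 276 and 221 in Middle cells, and 1 of them, the protease gene Ctss, was found in 36.8% of Low and 42.4% of Middle cells. The 2 NK cell markers in the table summed to 4.83, 3.99 and 55.1 CPM in Low and 56.0, 41.7 and 25.5 in Middle cells.

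The 4 effector or memory markers in the table summed to 53.1, 43.9 and 49.6 CPM in Low and 40.4, 34.8 and 49.6 in Middle cells. Of these, Cd44 was found in 15 Low cells and Itgb1 in 11, and Ccl5 and Cxcr3 in 0. Alas2, an erythroid gene, was also found in 0 of 174 Low cells. A count of 0 allows a share of cells with a UMI of up to 1.72% by the limit of 3 counts, and up to 2.10% by the exact interval, and does not limit the share of cells that express a gene. The 4 B cell markers summed to 4.83, 3.99 and 80.0 CPM in Low cells against 3.11, 5.21 and 17.4 in Middle cells, so the Low cells of plate 3 stood apart. The 4 regulatory T cell markers summed to 14.5, 108 and 60.7 CPM in Low and 31.1, 31.3 and 105 in Middle cells. Of the 17.0 UMIs of Ikzf2, 1 of these markers, in the Low cells of plate 2, a single cell held 16.0. Foxp3, the transcription factor of regulatory T cells, was found in 0, 3 and 14 Low cells of plates 1, 2 and 3. In Middle cells it was found in 0, 1 and 19. As shares these were 0%, 6.52% and 17.5% of Low and 0%, 1.0% and 10.9% of Middle cells. The share was thus higher in Low in plates 2 and 3. The difference averaged 4.03 percentage points (SD 3.53 over 3 plates, two-sided exact permutation of signs, p = 0.5).

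The most abundant transcripts of Low cells, leaving out mitochondrial genes and ribosomal protein genes with a numbered Rpl, Rps or Rplp symbol, were Rn45s, Tpt1, B2m, Eef1a1, Actb, Tmsb4x, Kcnq1ot1, H2-K1, Rpsa, Tmsb10, Gm17821, Wdr92, Malat1, Shisa5 and H2-D1. Rpsa, a ribosomal protein gene without such a symbol, is among them. These 15 took 9.63% of Low UMIs and were the same 15 as in Middle cells. Rn45s, the ribosomal RNA precursor, had the widest spread among them, with 20488, 56975 and 23464 CPM in the Low cells of plates 1, 2 and 3. Across genes, levels in Low and Middle cells ranked alike (Spearman 0.941), a description over genes that share libraries.

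UMIs per cell had no common direction over the plates. The median number of UMIs per cell was 4200, 4987 and 4604 in the Low cells and 3746, 5770 and 3784 in the Middle cells of plates 1, 2 and 3. Low cells were thus higher in plates 1 and 3 and lower in plate 2, and the cells of both classes overlapped widely. The mean log2 ratio was 0.08 (SD 0.26 over 3 plates, two-sided exact permutation of signs, p = 0.75), and that of genes detected per cell was 0.04 (SD 0.13, exact p = 0.75). The median mitochondrial share of UMIs was lower in Low cells in 3 of 3 plates, by -0.06, -0.10 and -0.08 on the log2 scale (exact p = 0.25). Taken over the sum of each class, mitochondrial genes held 15.5%, 12.89% and 14.996% of UMIs in Low and 16.3%, 12.88% and 14.84% in Middle cells, so that share was lower in plate 1 only. With 3 plates this test cannot give a p below 0.25.

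**Figure D1:**
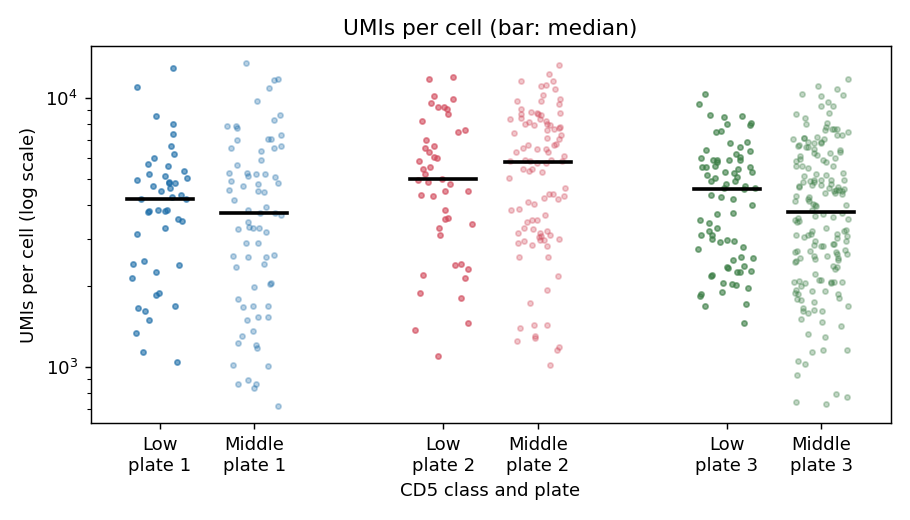
UMIs per cell (vertical log scale) for the Low and Middle cells of each plate; each point is a cell and each bar a median. Medians ran from 3746 to 5770, and Low was above Middle in plates 1 and 3 and below it in plate 2.

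No gene passed the test between Low and Middle cells over 3 plates. A gene that did not pass may still differ between the classes. Of 4813 genes tested with edgeR's quasi-likelihood method on summed counts, 0 were higher and 0 lower at an adjusted p of 0.05 (0% in each direction), and 206 (4.28%) had an unadjusted p under 0.05. The DESeq2 Wald test also called 0, with 96 at an unadjusted p under 0.05. Without plate 2, edgeR called 8 of 5113 genes, all lower in Low cells (0.156%), with 201 genes (3.93%) at an unadjusted p under 0.05. Leaving out plate 1 gave 0 calls and 181 genes at that unadjusted level, and leaving out plate 3 gave 0 and 213. The fold change was positive for 49.4% of tested genes over 3 plates and for 50% without plate 2.

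Cd5 mRNA, the transcript of the sorted protein, was lower in the Low cells of 2 plates only. Low cells had 96.6, 259 and 49.6 CPM in plates 1, 2 and 3, and Middle cells 193, 245 and 169. Plates 1 and 3 were low and plate 2 was not. The log2 fold change was -0.69 (SE 0.30, edgeR adjusted p = 0.998) over 3 plates. Without plate 2 Cd5 fell by 1.44 on the log2 scale (SE 0.31, edgeR adjusted p = 0.0161). A Cd5 UMI was found in 22.9%, 41.3% and 13.8% of Low cells of plates 1, 2 and 3, against 44%, 43.0% and 37.4% of Middle cells.

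Cd6, a scavenger receptor relative of CD5 that also restrains receptor signalling and lies beside it on chromosome 19, had the same layout. Its level was 87.0, 231 and 60.7 CPM in Low cells and 193, 238 and 145 in Middle cells, with plate 2 again level between the classes. The log2 fold change was -0.65 (SE 0.31, edgeR adjusted p = 0.998), and -1.24 without plate 2 (edgeR adjusted p = 0.145), which did not pass. Why plate 2 differs from the others was not tested, nor was whether its CD5 values are listed for the right wells. If they were not, the Low and Middle cells of plate 2 would not be those classes.

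Dntt was the marker with the most even difference. The Low cells held 6, 7 and 11 Dntt UMIs in plates 1, 2 and 3 and the Middle cells 2, 4 and 2, although Middle cells outnumbered Low cells in each plate. In CPM the Low level was 29.0, 27.9 and 30.3 and the Middle level 6.22, 6.95 and 2.68, so the groups did not overlap. A single Low cell of plate 3 held 6 of that plate's 11 UMIs, so the evenness of these levels rests partly on 1 cell. Among all tested genes 185 (3.84%) lay higher in Low without overlap and 210 (4.36%) lower. Dntt itself was too low for the filter, and with no filter its log2 fold change was 2.48 (SE 0.88, edgeR unadjusted p = 0.00498, adjusted p = 1).

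A Dntt UMI was found in 13 of 174 Low cells (7.47%, 95% exact interval 4.04 to 12.4) and in 4 of 349 Middle cells (1.15%, 0.313 to 2.91). The plates gave 4, 4 and 5 Low cells and 1, 2 and 1 Middle cells. The difference averaged 6.46 percentage points (SD 0.69 over 3 plates, exact permutation p = 0.25), was higher in 3 of 3 plates, and was 6.34 points without plate 2. With cells thinned to 2119 UMIs each it was 6.06 points (SD 3.80), and less even, with 10.3, 5.07 and 2.86 points in plates 1, 2 and 3.

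Of the 13 Low cells with Dntt, 12 had no Cd5 UMI, 7 had a Ly6c1 UMI and 2 a Ly6a UMI. Their median CD5 was 13247 units, and 8 lay at or below the median CD5 of their plate's Low cells and 5 above it. Of these cells 8 held a single Dntt UMI and the highest held 6. Their median depth, 4770 UMIs, was near the 4514 of the other Low cells.

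**Figure D2:**
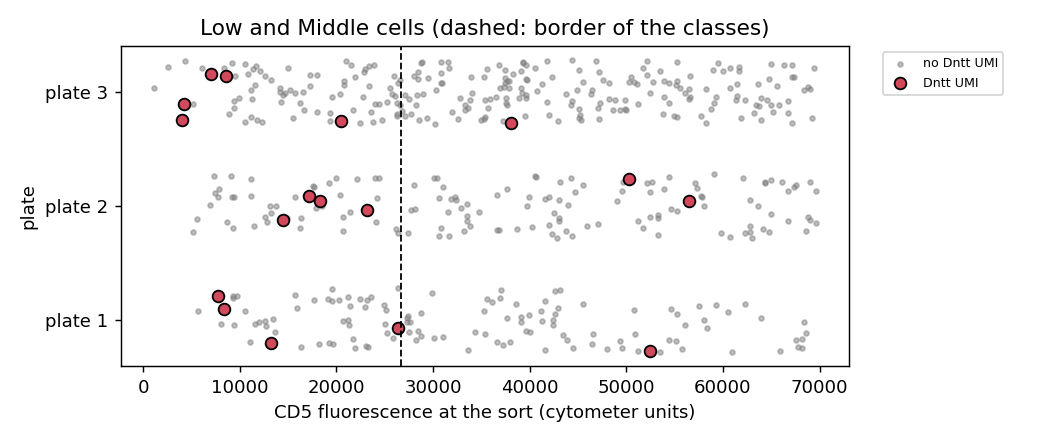
CD5 fluorescence (horizontal axis, cytometer units) of Low and Middle cells of each plate, with vertical scatter added for legibility; large points are cells with a Dntt UMI and the dashed line is the border between classes. Of the marked cells, 13 lie on the Low side and 4 on the Middle side.

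Ly6c1 was found in a higher share of Low than of Middle cells in every plate, while its summed level was not higher in every plate. The share of cells with a UMI was 37.5%, 30.4% and 36.2% in Low and 29.3%, 21.0% and 17.2% in Middle. The difference averaged 12.2 points (SD 5.93 over 3 plates, exact permutation p = 0.25) and was 13.6 points without plate 2. In thinned cells it was 6.28 points (SD 6.14), with 4.89, 0.96 and 13.0 points in plates 1, 2 and 3. Its level was 130, 95.8 and 163 CPM in Low and 168, 73.0 and 64.4 in Middle. Plate 1 thus ran the other way, and the log2 fold change was 0.45 (SE 0.34, edgeR adjusted p = 0.998), with 0.45 without plate 2. Ly6c2 is a close relative next to Ly6c1 on chromosome 15, so reads may be split between them.

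Ly6a, known as Sca-1, had no common direction over the plates. Its level was 256, 228 and 157 CPM in Low and 321, 151 and 111 in Middle, higher in plates 2 and 3 and lower in plate 1. The log2 fold change was 0.21 (SE 0.27, edgeR adjusted p = 0.998), and 0.02 without plate 2. Its share of cells differed by -0.20 points (SD 13.3, exact permutation p = 1). Ly6c1 and Ly6a UMIs occurred together in 23 Low cells, where 19.7 would be met if they were independent within plates, and in 2 thinned Low cells, where 5.56 would be. In Middle cells they occurred together in 41 against 23.6, and thinned in 9 against 7.07. Of the 3 genes given as marks of this class, Dntt and the share of Ly6c1 cells were thus higher in 3 of 3 plates, and Ly6a was not. In thinned cells the Ly6c1 share was near level in plate 2, at 12.2% of Low and 11.2% of Middle cells.

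**Figure D3:**
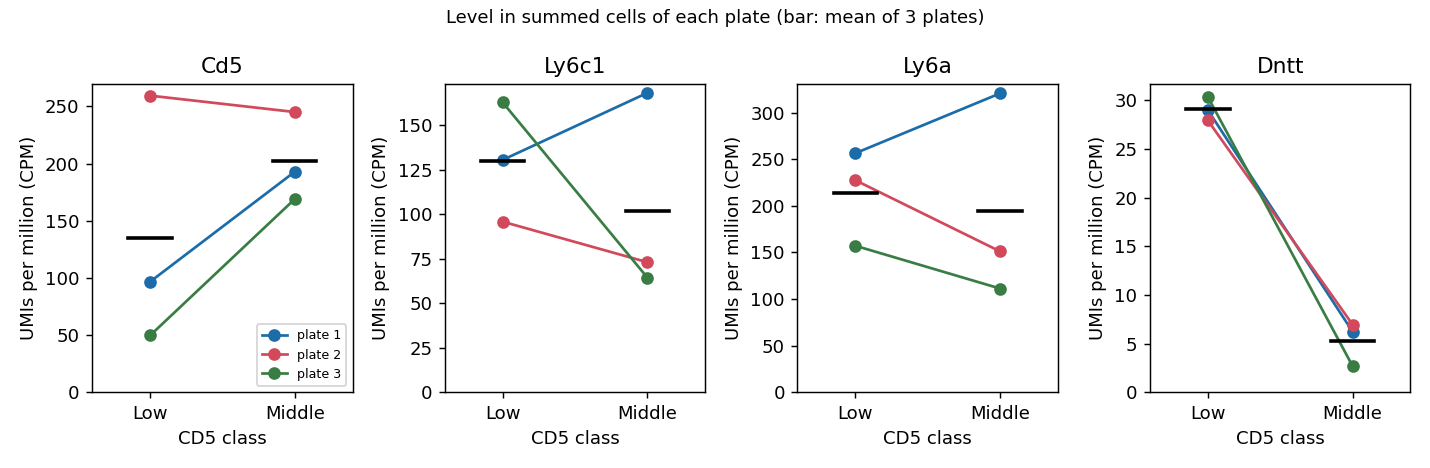
Level in summed cells (vertical axis, CPM) of Cd5, Ly6c1, Ly6a and Dntt in the Low and Middle class; lines join the classes of a plate and bars are means of 3 plates. Dntt was lower in Middle than in Low in each plate, while Cd5 in plate 2 stood at 259 and 245.

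The genes of smallest p with 1 sign in all 3 plates did not pass. Among all tested genes 548 (11.4%) were higher and 642 (13.3%) lower in 3 of 3 plates. On the higher side were Cdk19, a kinase of the Mediator complex, Pvr, an adhesion receptor, Srsf2, a splicing factor, Mfap1a, Dpf2, Cd226, Paxbp1 and Klhl9. Pvr had 164, 104 and 93.8 CPM in Low and 71.5, 41.7 and 42.9 in Middle cells, with a log2 fold change of 1.19 (SE 0.36, edgeR adjusted p = 0.998). Cdk19 had 135, 152 and 116 CPM in Low and 62.2, 59.1 and 63.0 in Middle. The classes did not overlap for either gene, which held for 185 (3.84%) of all tested genes on the higher side. Both genes were picked for small p and 1 sign in all plates. Srsf2 was higher within each plate but overlapped between plates, with 556, 747 and 847 CPM against 361, 576 and 590. CD226 is an activating receptor that binds the product of Pvr, and its gene had 62.9, 104 and 63.4 CPM in Low against 40.4, 20.9 and 36.2 in Middle.

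On the lower side were Kcnq1ot1, Gm17821, mtNd5, A630089N07Rik, Ikbkg, Zxda, F830016B08Rik and Rnf181. Kcnq1ot1, a long noncoding transcript made antisense to Kcnq1 on chromosome 7, had 5003, 3943 and 6187 CPM in Low and 7682, 4468 and 7774 in Middle. Its log2 fold change was -0.39 (SE 0.094, edgeR adjusted p = 0.879), and -0.51 without plate 2, where it passed (edgeR adjusted p = 6.7e-07). Ikbkg, a subunit of the kinase that activates NF-κB, had 38.7, 27.9 and 27.6 CPM in Low and 77.8, 130 and 45.6 in Middle, and did not pass with or without plate 2.

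**Figure D4:**
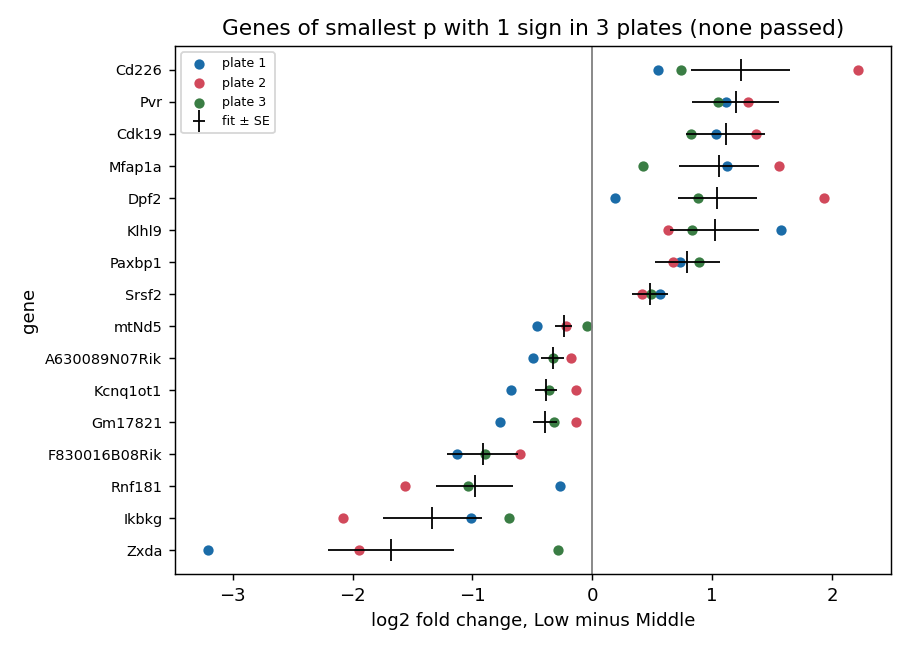
Log2 fold change, Low minus Middle (horizontal axis), of the 16 genes of smallest p with 1 sign in all plates; coloured points are plates and black marks the edgeR fit with its SE. None passed over 3 plates.

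Kcnq1ot1 belongs to a group of 7 transcripts put together from earlier results of these cells. Its members may vary together, so their counts below are not independent of each other or of Kcnq1ot1. All 7 were tested, 0 passed over 3 plates, 7 were lower and 6 were lower in each plate, against 13.3% of all tested genes. The median log2 fold change was -0.39, against -0.0043 over all tested genes. The group took 1.23%, 1.07% and 1.61% of Low UMIs and 1.92%, 1.21% and 1.99% of Middle UMIs. Without plate 2 the median was -0.50 and 4 of the 7 passed, against 0.156% of all genes. These 4, lower in Low, were Kcnq1ot1, Gm17821, A630089N07Rik and Grk4. Vmn2r55, another member, had -0.50 and did not pass (edgeR adjusted p = 0.0681). Cd5, Dapl1 and Mir5109 were among the other genes that passed without plate 2, all lower in Low. Mir5109 ran the other way in plate 2, with 4298 CPM in Low and 2814 in Middle cells.

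Genes of the naive state and of homing to lymph nodes gave 0 of 27 tested members past the threshold, 12 higher and 15 lower, with a median of -0.01. Dapl1, expressed in resting T cells, had 91.8, 223 and 132 CPM in Low and 349, 223 and 239 in Middle cells. Plate 2 was again level, and Dapl1 fell by 1.34 on the log2 scale without it (edgeR adjusted p = 0.0151) against -0.83 over 3 plates (0.998). Igfbp4 had a log2 fold change of -0.39 and Bcl11b, a transcription factor of T cell identity, -0.36, each lower in 3 plates and neither past the threshold.

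Lists on T cell receptor signalling showed no common direction. Over all tested genes 49.4% had a positive fold change. Of 16 tested early genes induced by receptor signals, 0 passed and 12 were lower, with a median of -0.08 that was 0.08 without plate 2. Myc, a growth regulator, had 29.0, 23.9 and 41.4 CPM in Low and 71.5, 57.3 and 57.7 in Middle, lower in each plate without passing (log2 -0.95, SE 0.42, edgeR adjusted p = 0.998). Fos, of the same list, ran the other way, at 0.45 (SE 0.20, edgeR adjusted p = 0.998) and 0.63 without plate 2. The Fos difference lay mostly in plate 1, with 1.45, 0.04 and 0.05 in plates 1, 2 and 3. Of 22 negative regulators of these signals, 0 passed and 12 were higher, with a median of 0.04 and -0.19 without plate 2, where Cd5 was the 1 member that passed, lower in Low. Of 25 genes of the receptor complex and proximal signalling, 0 passed and 15 were higher (median 0.07), among them Txk, a kinase, at 0.61. Rasgrp1 was among the 10 that were lower, at -0.39.

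Of 6 tested genes linked to self-antigen exposure and anergy, 4 were lower, with a median of -0.35, and 0 passed. Over all tested genes 49.4% had a positive fold change. The list took 0.0309%, 0.0479% and 0.0256% of UMIs in Low and 0.0539%, 0.0443% and 0.0374% in Middle cells. In plate 2 its share was thus higher in Low. Folr4, the older symbol of Izumo1r and a folate receptor relative found on anergic and regulatory T cells, had 126, 176 and 77.2 CPM in Low and 302, 230 and 118 in Middle, lower in 3 of 3 plates. Its log2 fold change was -0.74 (SE 0.25, edgeR adjusted p = 0.998), and -0.98 without plate 2 (0.628). The share of cells with a Folr4 UMI was closer, at 24.7% of Low and 26.4% of Middle cells. It differed by -9.5, -3.91 and 2.28 points in plates 1, 2 and 3, so in plate 3 the share was higher in Low. Of 5 regulatory T cell markers, which share members with that list, 0 passed and 3 were lower (median -0.20). Of 2 tested genes of recent thymic emigrants beside Dntt, Tox had -0.50 and Itm2a -0.04, and 0 passed. Itm2a turned to 0.56 without plate 2, with 1.45, -1.41 and 0.04 in plates 1, 2 and 3.

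Interferon and antigen presentation lists held more lower than higher members, and 0 passed. Over all tested genes 49.4% had a positive fold change. Of 34 tested genes of the type I interferon response, 20 were lower with a median of -0.19, and -0.22 without plate 2. The list took 0.642%, 0.624% and 0.594% of UMIs in Low and 0.760%, 0.649% and 0.564% in Middle cells. In plate 3 its share was thus higher in Low. Gbp9 had a log2 fold change of -1.15 and Ddx60 0.96, so single members ran both ways. Of 17 genes of MHC class I presentation, 11 were lower (median -0.09). Their list took 1.59%, 1.44% and 1.47% of UMIs in Low and 1.59%, 1.49% and 1.48% in Middle cells. Housekeeping lists lay near the median of all genes, with 75 ribosomal protein genes at -0.03, 71 nuclear respiratory chain genes at 0.03, 15 mitochondrial genes at -0.03 and 11 glycolysis genes at 0.06, and 0 passed in each. Of the ribosomal protein genes 50 were lower and 25 higher, and of the mitochondrial genes 13 were lower and 2 higher. The remaining lists also had 0 members past the threshold. Chromatin regulators had a median of 0.0049 over 44 tested genes, actin and integrin genes 0.03 over 38, survival factors and cytokine receptors 0.04 over 19, stress genes -0.06 over 15, costimulatory receptors -0.07 over 10 and GIMAP GTPases, which support lymphocyte survival, 0.03 over 8. Shorter lists were T follicular helper genes at -0.45 and cycling genes at -0.02, each over 5, effector or memory markers at 0.42 over 4 and markers of other cell types at -0.57 over 3.

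**Figure D5:**
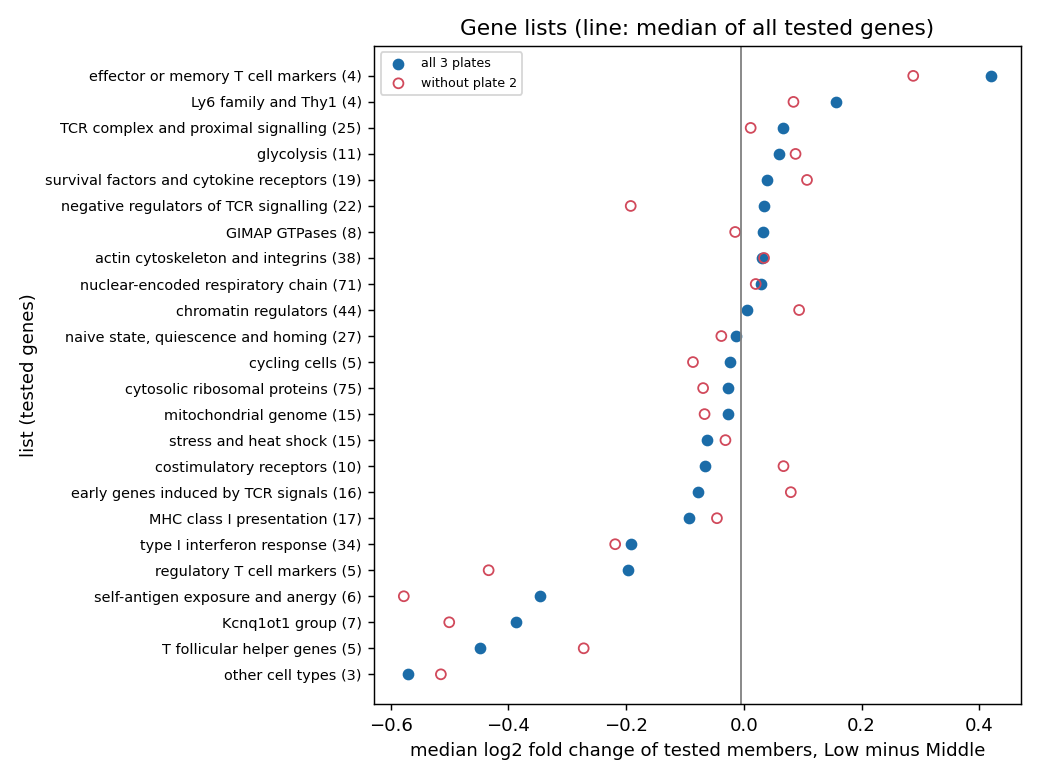
Median log2 fold change, Low minus Middle (horizontal axis), of the tested members of each list, with their number in brackets; filled points use 3 plates, open points leave out plate 2, and the line is the median of all tested genes. No member of any list passed over 3 plates.

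Low cells also showed no gene past the threshold when split among themselves. Cells below and above their plate's median CD5 within the class numbered 87 each, and edgeR tested 1972 genes, of which 50.1% had a positive fold change. Of these 0 passed (0% in each direction), 83 (4.21%) had an unadjusted p under 0.05, and the DESeq2 Wald test called 0 with 18 at that unadjusted level. Without plate 2 edgeR called 0 of 2385, with 97 at that level. Stk10, a kinase that acts in lymphocyte adhesion, had 1059, 649 and 438 CPM in the cells of less CD5 and 359, 371 and 338 in those of more, above in each plate (log2 0.88, SE 0.24, edgeR adjusted p = 0.290). A Stk10 UMI was found in 53 of 87 cells of less CD5 and 55 of 87 of more, so the share of cells was not higher. Traf7 and Igtp were also higher and Secisbp2l, Mtf2 and Anapc16 lower in the cells of less CD5 in each plate, none past the threshold. Cd5 mRNA had no common direction with CD5 among Low cells, with 65.5, 261 and 62.5 CPM in the cells of less CD5 and 130, 258 and 37.5 in those of more (log2 -0.09, SE 0.47, edgeR adjusted p = 0.998). In the cells of less CD5 it was lower in plate 1, near level in plate 2 and higher in plate 3. The SE is wide, so a difference may remain.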

How the data were processed

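The gene table deposited by the authors holds expected counts, UMI counts per cell corrected for collisions, for 14355 genes and 84 spike-in transcripts, made by SORT-seq per the labels' protocols and mapped with BWA to mm10 per the submitters' processing notes. Each cell's CD5 value, as deposited, is the fluorescence signal at the sort, and the classes are the authors'. Plates 1, 2 and 3 held 726230, 1113630 and 1404160 UMIs. Columns left unused numbered 0.

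Counts were summed per plate and class and rounded, giving 9 sums (6 for Low split at each plate's median CD5). edgeR 4.0.16 in R 4.3.3 (quasi-likelihood, TMM, filterByExpr, plate as a block) tested Low minus Middle, two-sided, with Benjamini-Hochberg adjustment at 0.05. High sums stayed out of the contrast but entered the fit, through the filter, scaling, plate terms and dispersion. edgeR drew each gene's spread toward that of all genes, with 38.2 prior against 4 residual degrees of freedom. For Low split by CD5 the prior was infinite against 2, so the spread was wholly pooled. CPM levels are counts per 1000000 UMIs of a sum. Plates pair the sums because classes of a plate share a library, and deviations of Low and Middle sums correlated at 0.36, 0.60 and 0.53. DESeq2 1.42.0, filters, normalization, depth, class borders and left-out plates were alternatives. Thinning took cells to 2119 UMIs, and 557 reached it. Intervals are exact (Clopper-Pearson, 95%) and hold counting error alone. A count of 0 was taken to allow 3. Doublets were not called. Scripts were tested on simulated data, where 34 of 100 genes changed 2-fold passed and 100 of 100 changed 4-fold. The simulated sums had no differences between plates, so these shares may not hold for the real cells. Positions follow GENCODE M21.

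Named genes are Cd5 and the 3 markers, genes passing, or else up to 8 a direction (3 within Low) of smallest p with 1 sign in all plates, up to 4 per list and the 15 most abundant. Cd6, Grk4, Mir5109 and single list members were picked after their values were seen where outside it. Some genes that the rule or a call names are not reported here. Members and lists were chosen with earlier results of these data known.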

Additional observations from a re-analysis of the deposited data

How the results depend on the processing

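Against 0 genes between Low and Middle cells, the count was 2 with no filter on low counts and 2 with Low and Middle sums only (Kcnq1ot1 and Gm17821 both times), and 1 in thinned cells (Kcnq1ot1). With 1 plate left out it ran from 0 to 8, and the 8 came without plate 2. With no replicate block the count was 0 (122 at an unadjusted p under 0.05), and the block changed no other call. Leaving out the cell richest in the Kcnq1ot1 group, a High cell, and limiting each gene to the cell ranked 3 in its plate were chosen after seeing the data and gave 0 each. Over 66 genes followed, 756 of 774 values kept direction and side of the threshold, 10 crossed it and 8 changed sign. With 1 plate left out, Ly6c1 ran from -0.037 (without plate 3) to 0.92, Ly6e from -0.14 (without plate 2) to 0.15 and Itm2a from -0.56 to 0.56 (without plate 2). Ly6e was -0.010 with no filter, -0.019 with no replicate block and -0.0093 with classes set by rank within plate. Itm2a was 0.038 with no replicate block and 0.027 with Low and Middle sums only. With 1 plate left out, the log2 ratio ran from -0.023 to 0.22 for UMIs per cell, -0.025 to 0.10 for genes detected and -0.015 to 0.041 for the ribosomal share, which was -0.014 with classes by rank, and the Ly6a share from -4.14 to 7.50 points, with 1.41 by rank. The cause was not tested. Within Low, split by CD5, each alternative run gave 0. Dntt rests on 24 Low UMIs, so its depth limits any statement on it.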
